A study of Mus musculus with 35 samples.

Results

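The comparison described here sets radiated flank skin against control skin 1 week after a single dose of 25 Gy, across all genes measured by bulk RNA sequencing. Its members were taken from the sample labels: the 4 libraries labelled radiated and the 4 labelled control at week 1, 8 of the 35 libraries of the series. The animals, all females of the inbred C57BL/6J strain, were 10 weeks old at the start, and no engineered allele or drug is named for them. The dose was given to the left flank over 420 seconds at 3.6 Gy per min, and the treated flank was then shaved. Radiated biopsies were taken at the irradiated place per the labels, while the location of the control skin, and whether it was shaved, is not stated. The series counts 19 mice for 35 samples, 3 of them sham mice without radiation, which would leave 16 radiated mice for 16 radiated and 16 control libraries. The labels do not state which libraries share a mouse. Libraries of the same number are taken as pairs here, an assumption on which every value by pair rests, and on this reading control skin is skin of a radiated animal.

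Skin that receives a high radiation dose develops radiation dermatitis, an inflammation with reddening, scaling and, later, moist loss of the epidermis. Ionizing radiation breaks DNA, which activates the transcription factor p53 and, through fragments of DNA or RNA in the cytosol, the interferon pathway. The epidermis renews itself from basal keratinocytes that mature into the cornified layer, and stressed keratinocytes switch on keratins 6, 16 and 17 and small barrier proteins. Mouse flank skin also contains hair follicles, sebaceous glands, dermal fat and a thin sheet of skeletal muscle, the panniculus carnosus, all of which enter a full-thickness biopsy.

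Library totals ran from 17434448 to 26897501 counts, and a gene with 3 counts made up between 1.12e-05% and 1.72e-05% of a library. The epidermal keratins *Krt5*, *Krt14* and *Krt10* were abundant in all 8 libraries, as is usual for skin, and skeletal muscle, fat and immune transcripts were present as well. In a bulk sample, fewer cells of a type and less RNA per cell cannot be told apart, and this holds for every group of genes below. Levels are given as CPM, the gene's part of a library's counts after scaling between libraries, and differences as the log2 of radiated over control. A gene was called different when the adjusted p of edgeR's quasi-likelihood test, with Benjamini-Hochberg adjustment over all genes, lay under 0.05. The p-values measure the spread between the 4 libraries of each group, and the labels do not say whether RNA was prepared more than once.

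None of the 17578 genes tested was called in the comparison of 4 against 4 libraries (0% called), and the smallest adjusted p was 0.171. An unadjusted p under 0.05 was found for 1239 genes that were higher in radiated skin (7.05%) and 1238 that were lower (7.04%). With total-count scaling in place of the main one, these were 2256 and 630, so that the even split depends on the scaling. Of the other tests, limma-voom called none and DESeq2 called 416. The CPM of the groups did not overlap in 614 genes that were higher (3.49%) and 860 that were lower (4.89%). The shares of the main fit are the background against which every count below is read, because no single gene described for week 1 passed its adjusted threshold. Most genes are described by their value in every library, in the order of replicates 1 to 4, and some by their adjusted p. A few are given by the log2 difference alone.

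One library, radiated replicate 1, set the count of called genes. When it was left out, edgeR called 232 of 17845 genes, 102 of them higher (0.572%) and 130 lower (0.728%). No other single omission called more than 1 gene. Of the 102 genes that were then higher, radiated replicate 1 lay inside the range of the 4 controls for 46 and above it for 50. Of the 130 that were lower, it lay inside the control range for 39 and below it for 88. These genes were chosen by a fit without that library, so that its place among them is partly set by the choice and is given as a description. Of the 232 genes, 219 had also been tested with all 8 libraries, and the other 13 passed the filter on low counts only without this library. Why this library differed from the other 3 was not tested, and results without it are given for some lists and genes only. Among the genes described below with all libraries, *Krt6b*, *Zbp1*, *Ckm*, *Fabp4* and *Hoxb9*, for example, were called when it was left out. Others, such as *Adipoq*, *Gpihbp1* and *mt-Co3*, were not.

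**Figure D1:**
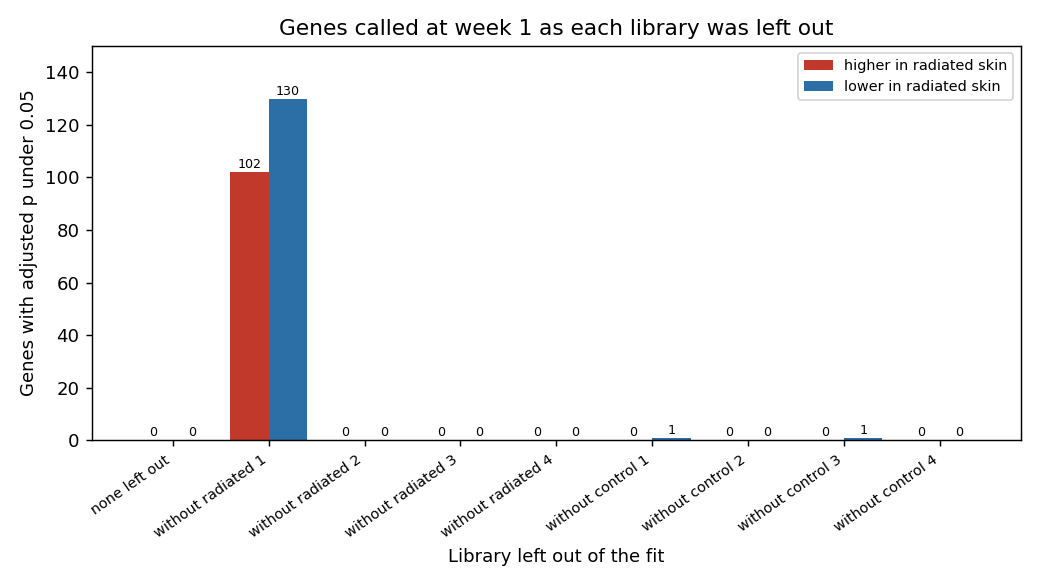
Number of genes with an adjusted p under 0.05 at week 1 in edgeR's quasi-likelihood test, by the library left out of the fit; red bars are genes higher in radiated skin and blue bars genes lower. With all libraries no gene was called, and leaving out radiated replicate 1 gave 102 higher and 130 lower genes, while every other omission gave 0 or 1.

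Single genes of stressed keratinocytes had large differences. *Krt6b*, a keratin of hyperproliferating and wounded epidermis on chromosome 15 (101676023 to 101680287, GRCm38), stood at 3.07, 3349.6, 1099 and 56.8 CPM in radiated skin. Its control values were 1.12, 1.05, 1.10 and 1.43 CPM. All 4 radiated libraries lay above all controls, but replicate 1 only by a small margin and replicate 2 by a very large one. The fitted log2 difference was 9.91 ± 1.84 (SE, n = 4 each, edgeR adjusted p = 0.171). Its relative *Krt6a* was measured at 93.1, 3675, 1388 and 421 CPM against 144, 253, 257 and 209.6 CPM, with radiated replicate 1 below all controls.

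*Krt16*, the partner keratin of *Krt6a* and *Krt6b*, was measured at 16.7, 6486, 1616 and 129.7 CPM in radiated and 14.8, 26.9, 42.2 and 18.6 CPM in control skin. Radiated replicates 2 and 3 were high, replicate 4 was intermediate and replicate 1 lay within the controls. The stefins, small inhibitors of cysteine proteases, followed the same order of libraries. *Stfa3* stood at 0.939, 59.6, 47.6 and 4.41 CPM against 0.233, 0.19, 0.0477 and 0.168 CPM, a log2 difference of 7.41 ± 1.31 (SE, n = 4 each, edgeR adjusted p = 0.171). The related *Cstdc5* was at 0.555, 141, 56.1 and 10.2 CPM against 0.279, 0.143, 0.286 and 0.505 CPM (log2 difference 7.38). Both genes have near-identical neighbours, so that their estimated counts depend on how reads were split between copies. Both passed the filter on low counts only with the radiated libraries, so that their values are given as a description.

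Of the 26 genes listed for keratinocyte stress and alarm signals, 13 passed the filter on low counts. Their median log2 difference was 1.67, against 0.05 over all genes tested, and it was 1.07 without radiated replicate 2, 4.62 without radiated replicate 1 and between 3.90 and 4.33 without any 1 of the controls. Each omission changes which members pass the filter (18 without radiated replicate 1), so these medians are not over the same genes. An unadjusted p under 0.05 was found for 8, all higher. The control libraries alone did not reach the level of the filter for 4 of the 13, *Il1f6*, *Sprr1b*, *Stfa3* and *Tslp*, so that these values describe the list and support nothing further. Members that did not pass the filter held no more than 0.961 CPM outside radiated replicates 2 and 3. *S100a8*, a calcium-binding alarmin of stressed keratinocytes and neutrophils, stood at 0.171, 16.8, 5.05 and 0.0874 CPM in radiated skin and at most 0.382 CPM in any control. *Sprr2d*, a cornified envelope protein, was measured at 0, 18.5, 16.5 and 0 CPM in radiated skin and at 0 in all controls. Without radiated replicate 1, 6 of the 13 were called, all higher, and 5 more that were called then had not passed the filter with all libraries. The summed level of all 26 genes was 446, 15240, 5704 and 1095 CPM in radiated and 597 to 716 CPM in control skin. Sham skin held 549, 2719 and 1322 CPM, so that sham replicates 2 and 3 lay above radiated replicates 1 and 4. Among the 12 listed neutrophil genes, which include *S100a8*, the marker *Ly6g* stood at no more than 0.108 CPM in any of the 8 libraries. The 4 of the 12 that were tested had a median log2 difference of 0.52, with 3 above 0 and 1 below. One unadjusted p, of a higher gene, lay under 0.05. The summed level of the 12 was 14.3 to 93.4 CPM in radiated, 7.40 to 18.9 CPM in control and 10.5 to 10.8 CPM in sham skin.

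Several genes of the maturing epidermis were higher as well, and others, such as *Krt10*, were not. *Flg*, which encodes the filaggrin precursor of the granular layer (chromosome 3, 93273523 to 93293686), was at 1166, 9464, 8465 and 2162 CPM in radiated skin. Its controls stood at 1038, 867, 1051 and 1147 CPM. Replicates 2 and 3 were far above the controls and replicate 1 was just above them (log2 difference 2.38 ± 0.56, SE, n = 4 each, edgeR adjusted p = 0.19). *Hrnr*, a filaggrin-like barrier protein, was measured at 219.7, 1468, 410.1 and 456 CPM against 90.7, 162, 164 and 140.5 CPM, with no overlap (log2 difference 2.21, and 1.38 without replicate 2).

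*Krt1*, the keratin of the suprabasal layers, stood at 409.6, 1766, 1203 and 764 CPM in radiated and 232, 362, 381 and 408 CPM in control skin, again with no overlap. Its usual partner *Krt10* showed no such difference, with 5756, 5939, 5319.5 and 8511 CPM against 4758, 6667, 6560 and 6887 CPM and a log2 difference of 0.04. *Krt14*, a keratin of basal cells, was at 1585, 7719, 3482 and 2746 CPM against 1046, 1428, 1363 and 1372 CPM, without overlap (log2 difference 1.59, and 1.00 without radiated replicate 2). *Krt15*, another basal keratin, went the other way, with 2000.3, 1644, 1442 and 2270.3 CPM against 2279.6, 2962, 2356 and 2960.2 CPM and all radiated values below all controls (log2 difference -0.52, edgeR adjusted p = 0.279). Over the 30 genes listed for epidermal structure the median log2 difference was 0.59 (0.34 without radiated replicate 2). An unadjusted p under 0.05 was found for 13 that were higher and for 1, *Krt15*, that was lower. When radiated replicate 1 was left out, 6 of the 30 were called, all higher.

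The late cornified envelope genes on chromosome 3 lay on the same side. All 15 *Lce* genes tested were higher in radiated skin, between 0.25 and 4.70 on the log2 scale with a median of 1.97, and 13 had an unadjusted p under 0.05. The highest, *Lce1g*, stood at 2.01, 57.0, 30.0 and 8.39 CPM in radiated skin and 0.977, 1.19, 0.573 and 1.01 CPM in control skin. *Lce1k* was measured at 1.20, 16.9, 16.1 and 6.07 against 0.14, 0.618, 0.907 and 1.09 CPM, and *Lce1e* at 2.52, 31.9, 18.7 and 5.68 against 0.838, 2.04, 1.72 and 1.72 CPM. In these 3 genes every radiated library lay above every control, with replicates 2 and 3 highest. The family as a whole was looked at after these values were seen, and its members resemble each other in sequence. The control libraries alone reached the level of the filter in 13 of the 15, while *Lce1j* and *Lce1k* passed only with the radiated libraries. Without radiated replicate 1, 8 of the 15 were called.

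Among the genes named by size, 2 more are known from epithelia. *Gsdmc*, a pore-forming gasdermin of epithelia, stood at 0.939, 97.4, 40.4 and 8.30 CPM against 0.791, 0.285, 0.716 and 0.925 CPM (log2 difference 5.75 ± 1.16, SE, n = 4 each, edgeR adjusted p = 0.19). Radiated replicate 1 was barely above the controls and the other 3 were far above them. *Rbp2*, a carrier of retinol, was at 6.75, 109, 32.0 and 13.9 CPM against 6.24, 3.85, 4.72 and 6.06 CPM, in the same order of libraries. Without radiated replicate 1, both were called, with edgeR adjusted p = 0.00803 for *Gsdmc* and 0.0239 for *Rbp2*. For *Gsdmc* the control libraries alone did not reach the level of the filter on low counts. Its values and call therefore describe the gene and support nothing further.

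**Figure D2:**
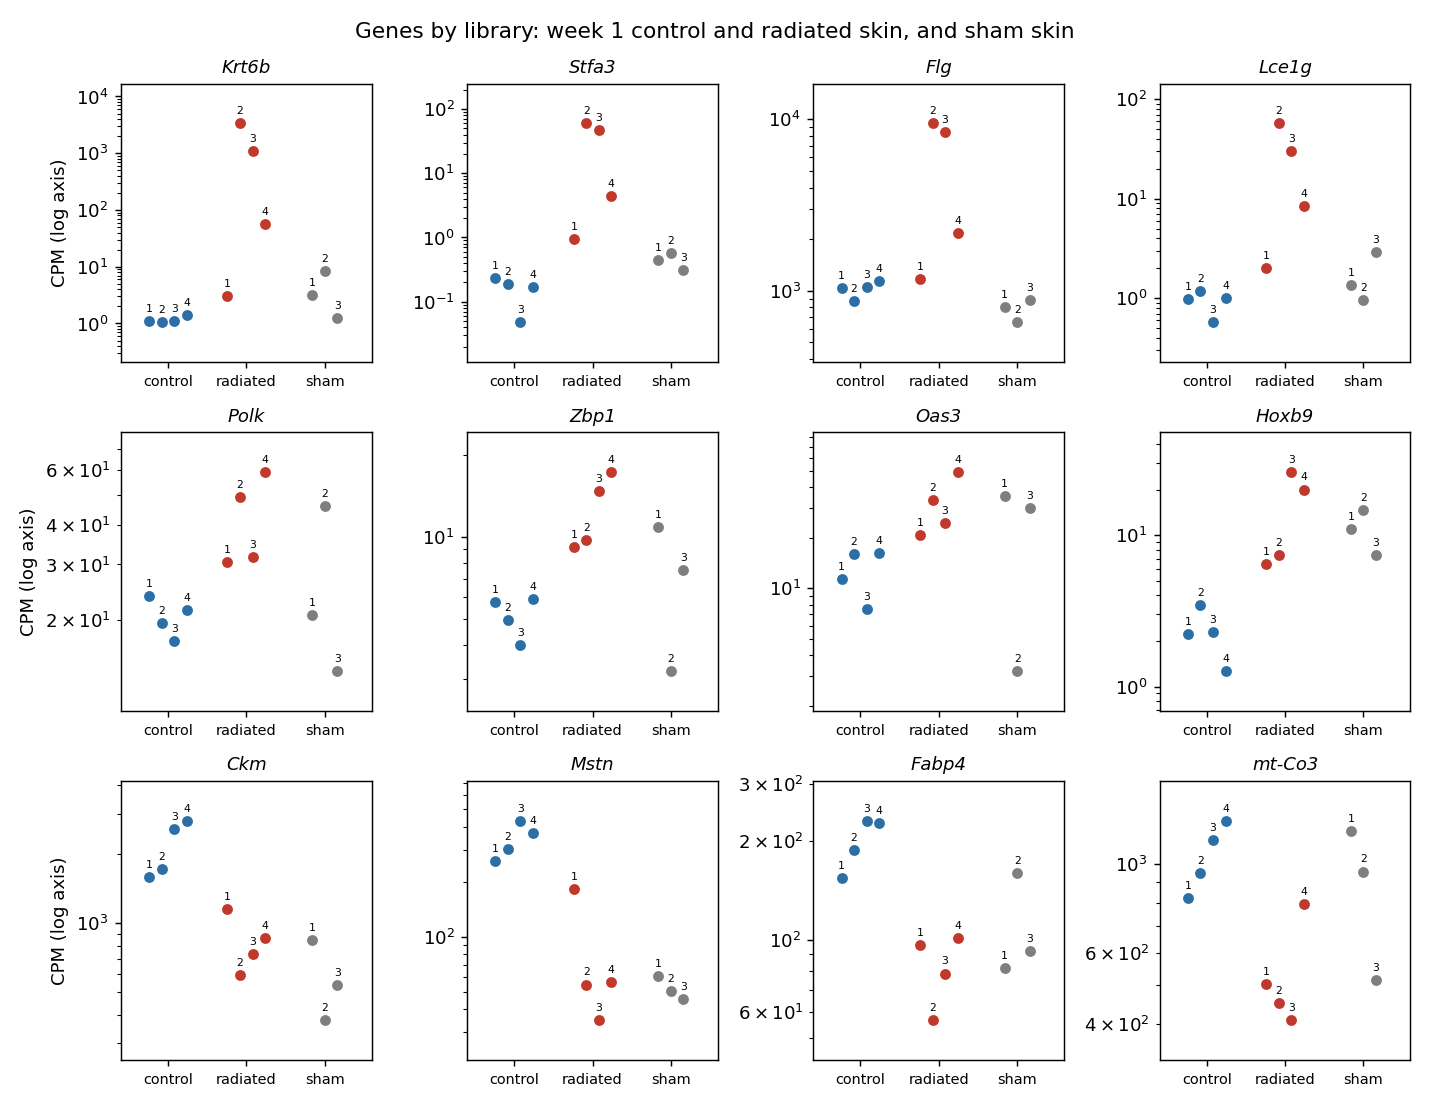
CPM on a log axis for 12 genes in each library of control skin (blue) and radiated skin (red) at week 1 and of sham skin (grey), with replicate numbers beside the points. Radiated replicate 1 sits near the controls for Krt6b, Stfa3, Flg and Lce1g, and the sham libraries sit with the radiated ones for Hoxb9 and Mstn.

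Targets of p53 were higher on balance, though the best known of them were not the ones that separated the groups. *Cdkn1a*, which encodes the cell cycle inhibitor p21, stood at 301, 587, 650.1 and 972 CPM in radiated and 322, 537, 819 and 544 CPM in control skin. These ranges overlap widely (log2 difference 0.18 ± 0.34, SE, n = 4 each, edgeR adjusted p = 0.823), and the sign depended on the libraries included. *Mdm2*, the ligase that degrades p53, gave a log2 difference of 0.36 (0.12 without radiated replicate 2) with overlapping groups (edgeR adjusted p = 0.478). *Polk*, a polymerase that copies past damaged bases (chromosome 13, 96480690 to 96542579), was measured at 30.6, 49.2, 31.7 and 59.1 CPM against 23.8, 19.5, 17.0 and 21.4 CPM. Each radiated library lay above every control for *Polk*, with replicates 2 and 4 highest (log2 difference 1.07 ± 0.23, SE, n = 4 each, edgeR adjusted p = 0.19).

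*Psrc1*, a microtubule-associated p53 target, stood at 10.8, 31.8, 22.4 and 20.1 CPM against 10.8, 5.51, 6.49 and 6.01 CPM. Here radiated replicate 1 and control replicate 1 were alike and the other pairs were far apart (log2 difference 1.57). *Dglucy* was at 9.18, 15.2, 14.7 and 22.1 against 7.82, 8.41, 7.73 and 9.59 CPM, and *Bax*, an activator of apoptosis, at 16.7, 25.6, 24.8 and 36.7 against 16.6, 14.8, 13.7 and 16.6 CPM with only replicate 1 near its controls. *Ccng1*, a cyclin induced by p53, was lower, at 177, 136, 127 and 238 against 225, 214, 309 and 282 CPM (log2 difference -0.60, edgeR adjusted p = 0.273). Of the 29 tested genes on the p53 list, 12 were higher and 1 lower with an unadjusted p under 0.05, and the median log2 difference was 0.51 (0.32 without radiated replicate 4). By pair, the median difference was 0.00 in pair 1, 0.31 in pair 2, 0.25 in pair 3 and 0.72 in pair 4. Without radiated replicate 1, 5 of the 29 were called, all higher: *Dglucy*, *Polk*, *Psrc1*, *Sesn2* and *Zmat3*.

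The list of interferon-stimulated genes had a median above 0 in all 4 pairs, as did the epidermal structural list. So did the p53 and keratinocyte stress lists, though at only 0.00147 and 0.00693 in pair 1. The median log2 difference of the 44 tested members was 0.49, and by pair it was 0.36, 0.29, 0.44 and 0.725. Radiated replicate 1 thus lay above its control for this list. An unadjusted p under 0.05 was found for 22 members, all higher. When radiated replicate 1 was left out, 2 of the 44 were called, *Oas3* and *Zbp1*. The groups did not overlap in 15 members that were higher and in 1, *Isg20*, that was lower (3.93, 2.27, 4.74 and 4.33 against 5.77, 4.85, 4.82 and 6.39 CPM). Over the 19 alternatives in which list medians were computed, this one lay between 0.36 and 0.61. The summed level of the list was 1320, 1185, 1037 and 1634 CPM in radiated, 832 to 1038 CPM in control and 678 to 1259 CPM in sham skin, where 1 library thus lay above radiated replicates 2 and 3.

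Members of the list varied in the size of the difference. *Zbp1*, which senses Z-form nucleic acid (chromosome 2, 173206612 to 173218923), stood at 9.14, 9.77, 14.7 and 17.3 CPM in radiated skin and 5.77, 4.94, 4.01 and 5.89 CPM in control skin. All 4 radiated values lay above all controls, with replicates 3 and 4 highest (log2 difference 1.31 ± 0.25, SE, n = 4 each, edgeR adjusted p = 0.171). *Oas3*, a synthetase of the oligoadenylates that activate ribonuclease L, was measured at 20.8, 33.8, 24.6 and 49.2 against 11.3, 16.0, 7.49 and 16.1 CPM. *Oas2* stood at 6.96, 8.74, 8.13 and 7.60 against 5.35, 3.94, 3.44 and 3.11 CPM, with very little spread in the radiated group (log2 difference 1.00). The RNA sensors *Ddx58* and *Ifih1* had smaller log2 differences of 0.38 and 0.43, and the kinase *Eif2ak2*, which binds double-stranded RNA, had one of 0.38 with overlapping groups. *Stat2*, a subunit of the factor that carries the interferon signal to DNA, was at 39.1, 39.3, 41.9 and 36.8 against 30.8, 28.0, 21.5 and 24.9 CPM, again without overlap (log2 difference 0.59). Of the ligands, *Cxcl10*, which attracts T cells, stood at 2.05, 4.59, 3.31 and 2.01 against 1.72, 0.618, 1.91 and 0.336 CPM.

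The element through which this response acts, the interferon-stimulated response element, is found in many promoters of these genes, and it is shown here for 5 members. The motif GAAANNGAAA was searched on both strands in the window from 250 bases before to 50 after each start site, in the RefSeq promoter table of build GRCm38.p6. Overlapping matches were each counted. It was present in 1079 of 27025 genes of that table (3.99%) and in 19 of the 33 members of the list that the table holds (57.6%). The stretches around the matches read, with each match in capitals:
Oas1a, chr5:120907510-120907565, minus strand: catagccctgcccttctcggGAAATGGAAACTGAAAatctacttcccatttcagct
Oas3, chr5:120777705-120777754, minus strand: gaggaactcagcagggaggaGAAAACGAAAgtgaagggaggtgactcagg
Isg15, chr4:156200855-156200916, minus strand: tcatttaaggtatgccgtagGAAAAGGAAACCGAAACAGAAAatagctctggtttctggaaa
Stat2, chr10:128270256-128270305, plus strand: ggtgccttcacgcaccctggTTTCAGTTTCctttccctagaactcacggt
Cxcl10, chr5:92349073-92349122, minus strand: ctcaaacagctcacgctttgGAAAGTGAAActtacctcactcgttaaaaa

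In *Isg15*, which encodes a ubiquitin-like protein, 3 matches overlap, the first starting 78 bases before the start site, and in *Stat2* the match lies on the opposite strand. *Isg15* was measured at 3.67, 5.72, 6.35 and 17.1 CPM against 2.75, 4.85, 2.72 and 5.55 CPM, with radiated replicate 4 far above the rest and replicate 1 within the controls. *Oas1a* stood at 7.94, 7.39, 9.14 and 10.3 against 5.17, 6.22, 1.96 and 5.76 CPM, without overlap. The 19 members with the motif had a median log2 difference of 0.53, and 10 of them were higher with an unadjusted p under 0.05. For the 14 without it these values were 0.55 and 7. A match is a description of letters and says nothing about binding in these samples.

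Genes of cell division differed little. The median log2 difference of 32 proliferation genes was 0.27 (0.16 without radiated replicate 2 and 0.44 without control replicate 1), and 4 had an unadjusted p under 0.05, all higher. *Mki67*, the marker of cycling cells, was at 105, 92.1, 102 and 83.7 CPM in radiated and 120.2, 65.8, 77.6 and 83.7 CPM in control skin, with overlap. *Birc5*, or survivin, a protein of chromosome segregation, stood at 8.84, 14.8, 11.9 and 10.4 against 7.58, 5.80, 6.68 and 8.24 CPM, and *Cdk1*, the kinase that drives mitosis, at 5.68, 7.93, 8.09 and 5.81 against 5.35, 3.99, 4.77 and 4.00 CPM. In both the groups did not overlap, by small margins.

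Skeletal muscle genes were lower in radiated skin. Of the 24 tested members of the list, 22 had a log2 difference below 0 and 21 an unadjusted p under 0.05, all lower. The groups did not overlap in 15. *Ckm*, the creatine kinase of muscle, was measured at 1156, 598, 734 and 864 CPM in radiated and 1587, 1714, 2579.5 and 2783 CPM in control skin (log2 difference -1.36 ± 0.25, SE, n = 4 each, edgeR adjusted p = 0.171). Every radiated library lay below every control, with replicate 1 nearest to them. *Actn3*, an actin-crosslinking protein of fast fibres, stood at 908, 299.6, 231 and 343 against 1108, 1109.9, 1636 and 1899.8 CPM, and *Pvalb*, a calcium buffer of fast fibres, at 754, 264, 217 and 313 against 956, 889.6, 1351 and 1889 CPM.

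Members of the list differed from each other. *Myh4*, the myosin heavy chain of the fastest fibres, was at 11883, 3895, 3258 and 5435 CPM against 13409, 13296, 17748 and 20378 CPM (log2 difference -1.40). *Myh1*, a myosin heavy chain of other fast fibres, stood at 2155, 2368, 2242 and 3929 against 1509, 2442, 2448 and 3388 CPM and *Myh2* at 381, 406, 214 and 357 against 281, 420.1, 429 and 203 CPM, with overlap and log2 differences of 0.13 and 0.03. *Mstn*, which encodes myostatin, an inhibitor of muscle growth, had the most negative fitted difference of the genes named by size, -2.05 ± 0.45 (SE, n = 4 each, edgeR adjusted p = 0.19). It was measured at 182, 54.7, 34.9 and 56.2 CPM in radiated, 261, 302, 431 and 369 CPM in control and 61.1, 50.2 and 45.7 CPM in sham skin. The sham libraries were thus at the level of radiated replicates 2, 3 and 4. The summed level of the list was 33490 to 72390 CPM in radiated skin, 73150 to 129800 CPM in control skin and 21730 to 65530 CPM in sham skin. How much muscle each biopsy held was not measured, and its part in the result was not tested. Without radiated replicate 1, 17 members were called, all lower.

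Fat genes followed. Of 23 adipocyte genes tested, 13 were lower with an unadjusted p under 0.05, none was higher, and the groups did not overlap in 8. When radiated replicate 1 was left out, 3 of the 23 were called, all lower. *Fabp4*, a fatty acid carrier of adipocytes and capillaries (chromosome 3, 10204088 to 10208576), stood at 96.2, 56.6, 78.6 and 101 CPM in radiated and 154, 188, 231 and 228 CPM in control skin. It had the smallest p of the genes with an established symbol and at least 5 CPM (log2 difference -1.26 ± 0.20, SE, n = 4 each, edgeR adjusted p = 0.171). The fatty acid transporter *Cd36* was at 97.9, 50.8, 63.9 and 88.5 against 128, 211, 233 and 181 CPM and the hormone *Adipoq* at 70.4, 30.8, 60.7 and 78.0 against 98.8, 124, 213 and 159 CPM, both without overlap. *Gpihbp1*, which anchors lipoprotein lipase to capillaries, stood at 6.32, 0.917, 3.87 and 4.02 against 8.52, 11.8, 13.4 and 11.4 CPM (log2 difference -1.56). The summed level of the list was 1319 to 2601 CPM in radiated, 2990 to 5150 CPM in control and 1069 to 1792 CPM in sham skin.

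Transcripts of energy metabolism were lower as well. All 13 genes encoded by mitochondrial DNA had an unadjusted p under 0.05 and were lower, with a median log2 difference of -0.69. *mt-Co3*, a subunit of cytochrome oxidase, was measured at 504, 451, 409.7 and 794 CPM in radiated and 821, 948, 1143 and 1275 CPM in control skin, with no overlap, which held for 3 of the 13. Of the 23 respiratory chain subunits encoded in the nucleus, all had a log2 difference below 0, 15 had an unadjusted p under 0.05 and the groups did not overlap in 13. No gene of either list was called when radiated replicate 1 was left out. *Ndufb8*, a subunit of complex I, stood at 45.3, 43.2, 44.2 and 50.5 against 62.3, 62.7, 68.8 and 72.6 CPM (log2 difference -0.53). *Pdk4*, the kinase that turns muscle and fat towards burning fatty acids, was at 89.4, 45.9, 59.5 and 72.8 against 125, 178, 177 and 261 CPM (log2 difference -1.47 ± 0.25, SE, n = 4 each, edgeR adjusted p = 0.171). The share of these genes' level that comes from muscle fibres was not tested.

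**Figure D3:**
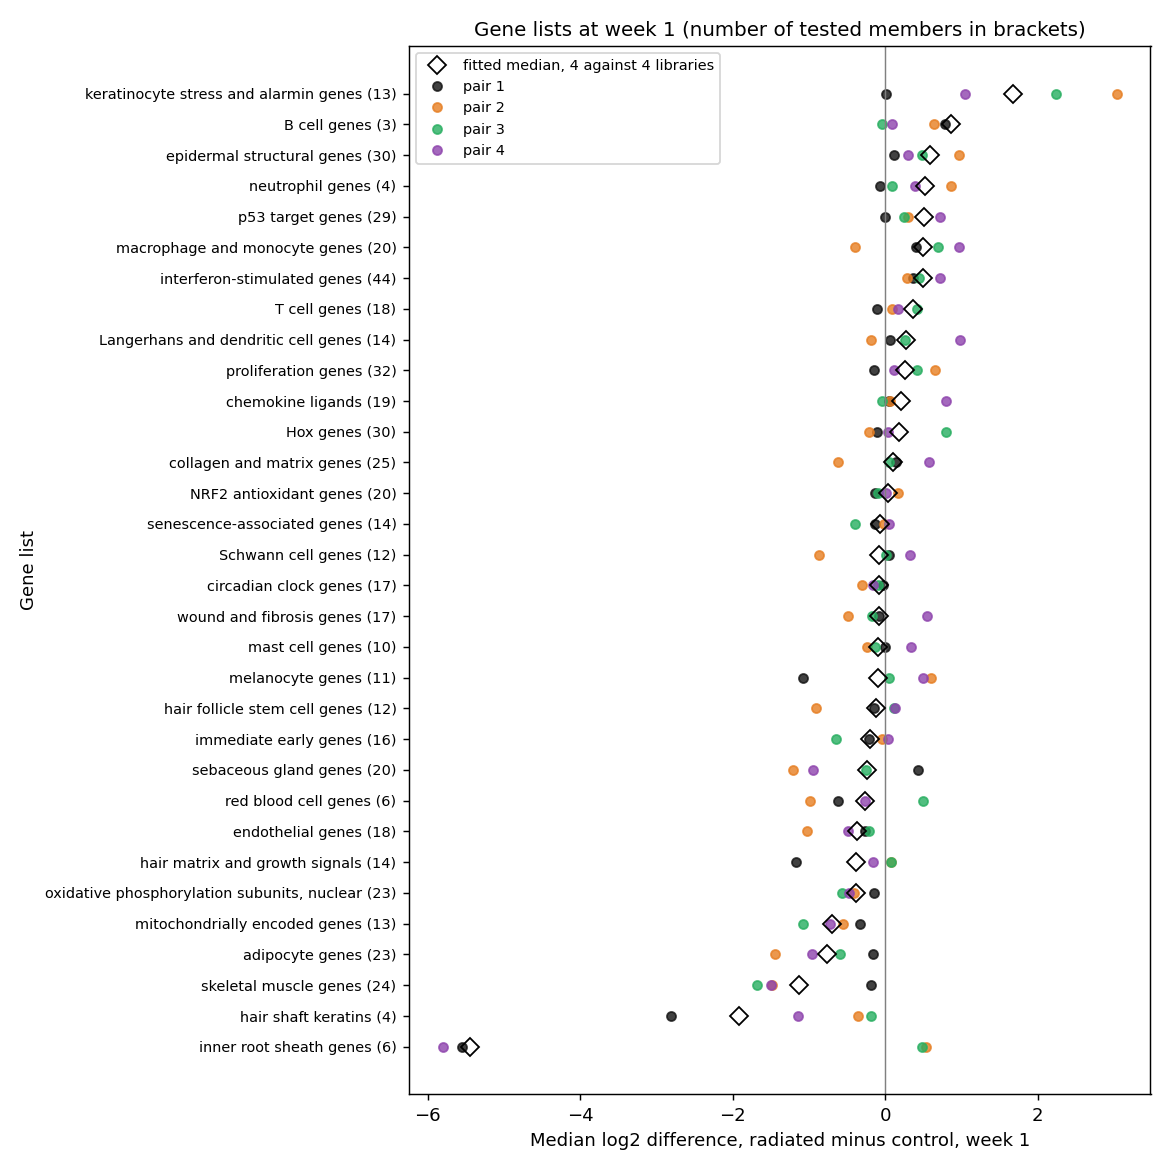
Median log2 difference of radiated minus control skin at week 1 for 32 gene lists; diamonds are the medians of the fitted differences and coloured points the median differences within each of the 4 numbered pairs. The skeletal muscle, adipocyte and mitochondrial lists lie below 0 in all 4 pairs, as do the endothelial, nuclear respiratory chain, clock and hair shaft lists. The interferon, epidermal structural, p53 and keratinocyte stress lists lie above 0 in all 4, the last 2 barely so in pair 1. The inner root sheath list lies below -5 in pairs 1 and 4 only.

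Hair genes rested on 2 control libraries. *Krt71*, a keratin of the inner root sheath that is made only in growing follicles, stood at 29.8, 0.432, 1.17 and 0.218 CPM in radiated and 1492, 0.19, 0.668 and 337 CPM in control skin. Control replicates 1 and 4 were high and the other 6 libraries low. *Tchh*, which encodes trichohyalin of the same layer, was measured at 64.3, 26.9, 22.4 and 14.9 against 4221, 17.1, 16.1 and 878 CPM. The median log2 difference of the 6 inner root sheath genes tested was -5.44 with all libraries and 1.55 without control replicates 1 and 4, and it was -3.36 without control replicate 1 alone. For the 4 hair shaft keratins it was -1.92 and 0.09, and -0.80 without control replicate 1 alone, -3.06 without control replicate 2 and -3.05 without control replicate 3. *Krt71* in sham skin stood at 499.7, 4968 and 5148 CPM.

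The sebaceous gland list had a median log2 difference of -0.24, which was -0.58 without radiated replicate 1 and 0.00548 without radiated replicate 4, and 3 of its 20 genes had an unadjusted p under 0.05, all lower. *Scd1*, a fatty acid desaturase of the gland and of fat, was at 1402, 705, 1455 and 870 CPM in radiated and 1187, 2743, 2891 and 2737 CPM in control skin, with control replicate 1 at the level of the radiated libraries. Stem cell genes of the follicle (12 tested, median -0.12) and pigment cell genes (11 tested, median -0.09) held no member with an unadjusted p under 0.05. With total-count scaling in place of the main one, the median of the stem cell list lay above 0. Without control replicate 1 the medians of the stem cell and pigment cell lists were 0.02 and 0.66. The pigment cell median was -0.47 without control replicate 2 and -0.35 without radiated replicate 4.

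Vessel genes were lower by a small amount. The median of 18 endothelial genes was -0.37 (-0.17 without radiated replicate 2), and 5 had an unadjusted p under 0.05, all lower. The summed level of the list was 246 to 554 CPM in radiated, 528 to 671 CPM in control and 218 to 369 CPM in sham skin. Sham skin thus lay below all controls as well. *Flt1*, a receptor for vascular endothelial growth factor, stood at 35.2, 22.8, 32.8 and 39.5 CPM in radiated and 45.4, 43.1, 59.7 and 55.7 CPM in control skin, and *Cldn5*, a tight junction protein of endothelium, at 4.14, 2.59, 5.61 and 5.24 against 7.49, 6.60, 7.01 and 7.95 CPM. Neither gene overlapped between the groups. Radiated replicate 2 was lowest for both. *Lmod1*, an actin nucleator of smooth muscle, was measured at 45.1, 22.0, 32.1 and 28.8 against 72.3, 58.4, 84.1 and 78.7 CPM (log2 difference -1.19 ± 0.21, SE, n = 4 each, edgeR adjusted p = 0.171).

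Immune cell lists differed from each other, with few members past an unadjusted p of 0.05. The 20 macrophage and monocyte genes had a median of 0.50 (0.33 without radiated replicate 1 or control replicate 4) and of -0.40 in pair 2 alone, and 4 were higher with an unadjusted p under 0.05. *Fcgr1*, a receptor for antibodies, stood at 4.95, 6.96, 5.31 and 8.13 CPM in radiated and 3.30, 4.13, 2.67 and 3.87 CPM in control skin, and *Trem2*, a lipid-sensing receptor of macrophages, at 2.56, 3.56, 4.18 and 2.45 against 2.23, 1.71, 1.62 and 1.14 CPM. Both lay above all controls in every radiated library. The Langerhans and dendritic cell list had a median of 0.27 (0.09 without control replicate 4, 0.56 without control replicate 1 and 0.51 without radiated replicate 2), and 2 of its 14 tested genes were higher with an unadjusted p under 0.05. *Itgax*, the integrin of dendritic cells and some macrophages, was at 6.83, 8.20, 10.7 and 9.18 against 6.00, 4.85, 5.97 and 3.03 CPM. *Cd207*, which encodes langerin of Langerhans cells, stood at 4.18, 1.67, 4.00 and 7.47 against 6.28, 6.08, 10.9 and 5.85 CPM, with overlap and a log2 difference of -0.74. Among T cell genes, only *Thy1*, which fibroblasts and nerves also express, had an unadjusted p under 0.05 (172, 169.5, 204 and 217 against 140.4, 114, 122 and 128 CPM).

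The neutrophil receptor *Cxcr2*, which keratinocytes can also express, stood at 9.22, 27.2, 14.9 and 6.47 CPM in radiated and 7.40, 4.70, 7.97 and 4.16 CPM in control skin, with replicate 2 highest. Mast cell genes had a median of -0.09, 7 of the 10 tested lay below 0, and none had an unadjusted p under 0.05. Leaving out 1 library gave medians from -0.24 (control replicate 4) to 0.0167 (control replicate 1). Collagen and matrix genes held 1 of 25, *Col12a1*, which encodes a fibril-associated collagen (64.0, 83.9, 128 and 136 against 84.5, 57.1, 62.8 and 75.6 CPM). *Col1a1*, the main collagen of dermis, gave overlapping groups and a log2 difference of 0.47, which was 0.24 without control replicate 2 and 0.75 without radiated replicate 2. Lists of senescence, clock, antioxidant and immediate early genes had medians between -0.20 and 0.03. With total-count scaling the senescence, clock and mast cell medians changed from below to above 0. The immediate early median was 0.05 without control replicate 1, and the antioxidant one -0.09 without radiated replicate 2.

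Other genes that were higher or lower in every pair do not belong to the lists. Of the 17578 genes tested, 2318 were higher and 2283 lower in all 4 pairs, so that this alone does not set a gene apart. *Ccdc88b*, a protein of immune cells, was measured at 11.3, 12.1, 14.5 and 11.0 CPM in radiated and 5.72, 5.37, 6.20 and 4.79 CPM in control skin, without overlap (log2 difference 1.15 ± 0.18, SE, n = 4 each, edgeR adjusted p = 0.171). *Cdkn1c*, the imprinted cell cycle inhibitor p57, stood at 20.3, 10.8, 12.8 and 13.7 against 35.4, 30.9, 28.5 and 38.9 CPM. *Il22ra2*, a soluble receptor that blocks interleukin 22, was at 4.87, 4.05, 2.35 and 3.36 against 7.54, 13.6, 9.64 and 10.5 CPM (log2 difference -1.49).

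*Ifitm6*, of the interferon-induced transmembrane family, stood at 7.77, 2.91, 4.83 and 4.24 against 12.3, 13.3, 16.1 and 16.4 CPM and was thus lower while the interferon list was higher. *Mlf1* was measured at 23.5, 7.99, 6.44 and 17.3 against 34.4, 30.9, 43.8 and 52.2 CPM. *Epha3*, an ephrin receptor, stood at 12.6, 6.69, 5.44 and 8.39 against 13.5, 15.4, 85.3 and 14.5 CPM, with control replicate 3 far above the other 7 libraries (log2 difference -1.95, and -0.80 without that library).

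Some Hox genes, which mark the position of skin along the body, separated the groups. *Hoxb9* (chromosome 11, 96271457 to 96276595) was at 6.45, 7.34, 26.0 and 20.0 CPM in radiated, 2.23, 3.47, 2.29 and 1.26 CPM in control and 10.9, 14.7 and 7.38 CPM in sham skin. The sham values lay within the range of radiated skin and above all controls (log2 difference of radiated minus control 2.70 ± 0.49, SE, n = 4 each, edgeR adjusted p = 0.171). *Hoxc10* stood at 3.03, 4.05, 11.6 and 14.0 against 2.75, 1.90, 0.907 and 0.715 CPM, without overlap, and *Hoxa9* at 3.63, 2.27, 7.18 and 8.52 against 1.77, 2.66, 2.77 and 3.15 CPM, with overlap. Over the Hox genes tested, the median log2 difference was 0.18, and none was lower with an unadjusted p under 0.05. Of the 30 tested, 4 were higher with such a p, and the groups did not overlap in 3. Without radiated replicate 3 that median was 0.00475. The position of the control biopsy is not stated, and its part in the differences described here was not tested.

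The smallest p of all genes belonged to *Gm10800*, a predicted gene on chromosome 2 (98666547 to 98667301) that consists of repeat sequence. It was picked after its values were seen, and it was measured at 20.8, 1188, 197 and 592 CPM in radiated and 4.56, 4.09, 4.68 and 3.45 CPM in control skin (log2 difference 6.91 ± 1.02, SE, n = 4 each, edgeR adjusted p = 0.171). A total of 11 predicted genes of the table, *Gm10800* included, lie on chromosomes 2, 9 and 14 and share its words. In each, at least 10% of the gene's own 24-base words are found in the *Gm10800* transcript, on either strand. A stretch of 64 bases, printed in lower case as nothing in it is singled out, is common to 6 of the 11 and belongs by its letters to the major satellite, the tandem repeat beside mouse centromeres:
Gm10800, bases 82 to 145 of the transcript: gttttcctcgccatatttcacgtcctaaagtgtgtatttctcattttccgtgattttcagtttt

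Because reads from such a repeat cannot be assigned to 1 copy, the 11 genes were summed. The counts do not tell whether the reads came from RNA of the repeat or from DNA in the sample. The sums were 36.9, 1503, 262 and 764 CPM in radiated skin and 16.8, 12.5, 15.3 and 15.1 CPM in control skin at week 1. Sham skin held 13.9, 32.6 and 16.1 CPM. Each of the 16 radiated libraries of weeks 1 to 4, between 36.9 and 2373 CPM, lay above each of the 16 control libraries, between 11.7 and 31.9 CPM. The lowest radiated value of all was radiated replicate 1 of week 1. These are descriptions of a group chosen for its values and carry no test.

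The week 1 differences were then set against those of later weeks, in 1 edgeR model of 32 libraries that tested whether the radiated-minus-control difference had changed. The contrasts share the week 1 libraries. Between week 1 and week 2 no gene of 19338 passed an adjusted p of 0.05 (0% in either direction). An unadjusted p under 0.05 was found for 1296, limma-voom called none and DESeq2 called 9. The genes with the smallest p in that contrast, *Lat2*, *Medag* and *Ubox5*, each had an edgeR adjusted p of 0.736. By week 3 the difference had moved upward in 562 genes (2.91%) and downward in 523 (2.7%), which became 343 and 245 without control replicate 1 of week 1 and 624 and 309 with total-count scaling. By week 4 it had moved upward in 1443 (7.46%) and downward in 1310 (6.77%), which became 1232 and 1453 with total-count scaling.

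More mast cell and macrophage genes had a changed difference by week 4 than by week 3. *Hdc*, the enzyme that makes histamine, had a log2 difference of 0.31 at week 1 (0.15 without control replicate 4 and 0.20 without radiated replicate 2) and of 4.16 at week 3, a change of 3.85 ± 0.47 (SE, 4 libraries a group, edgeR adjusted p = 0.000107). *Srgn*, the proteoglycan of mast cell granules, rose in the same way by 2.73 on the log2 scale. *Spp1*, or osteopontin, went from -0.20 at week 1 to 6.62 at week 4 (adjusted p = 1.22e-06, edgeR). Of 20 macrophage genes, 1 had an upward change by week 3 and 11 by week 4, and the list medians were 0.49, 1.85, 1.38 and 2.51 at weeks 1 to 4. Of 12 mast cell genes, 2 had an upward and 1 a downward change by week 3, and 7 an upward and 1 a downward change by week 4. The matrix genes *Col12a1* and *Pcsk5*, a protease that processes growth factors, rose by 4.15 and 3.80 over the same weeks.

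The epidermal genes went the other way. Of the 30 epidermal structural genes, 16 had a downward change by week 4 and none an upward one, and the median of the list went from 0.59 at week 1 to -1.18. *Krt15* and *Krt10* had changes of -3.94 and -2.61. Of the stress list, *Krt6b* had log2 differences of 9.91, 6.99, 8.75 and 10.68 at weeks 1 to 4, and no change of its difference passed the test. *Nectin3*, an adhesion molecule, had a change of -2.24 by week 3. *Polk*, the polymerase of the p53 list, had a difference of 1.07 at week 1 that fell by 0.95 on the log2 scale by week 4 (edgeR adjusted p = 0.0307). Of the p53 list, 6 of 30 genes had a downward change by week 4 and none an upward one.

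The median of the skeletal muscle list was -1.14 at week 1, -1.06 at week 2, -2.0 at week 3 and -1.59 at week 4. No member had a change that passed the test by week 3, and by week 4 there were 3, all downward. *Mstn*, which is not on the list, had a change of -3.04 by week 3 (edgeR adjusted p = 0.0426). Interferon-stimulated genes had medians of 0.49, 1.37, 0.62 and 1.33, but the change passed the test in only 1 member by week 3 and 2 by week 4. *Hoxb9* had a log2 difference of 0.18 by week 3, a change of -2.52 (edgeR adjusted p = 0.0128).

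**Figure D4:**
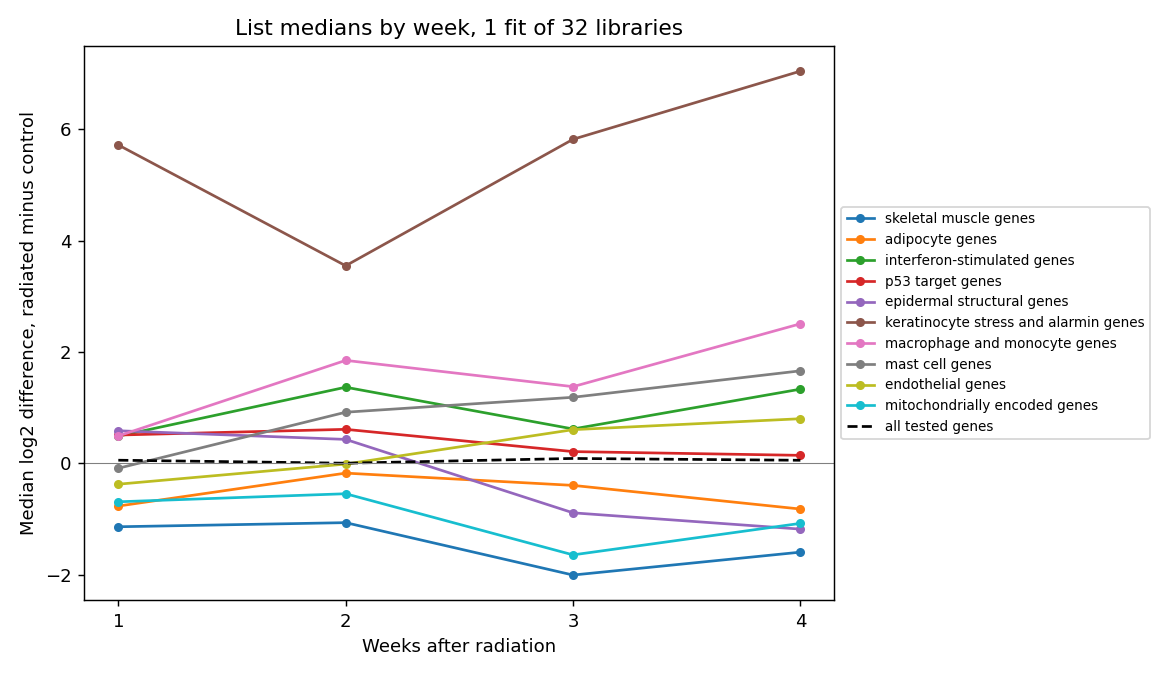
Median log2 difference of radiated minus control skin at weeks 1 to 4 for 10 gene lists and for all tested genes (dashed), from 1 fit of 32 libraries. Its filter admits more keratinocyte stress genes than the fit of 8 libraries, hence the higher median at week 1; the mast cell, macrophage and endothelial lists are near or below 0.5 at week 1 and higher by week 4, and the epidermal structural list is above 0 at week 1 and below it at weeks 3 and 4.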

How the data were processed

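RNA of 35 mouse skin samples was measured by bulk sequencing, and the 8 week 1 samples are compared here. Tissue was stored in RNAlater and RNA extracted with an RNeasy kit, per the labels' protocols, which also say that Kallisto and DESeq2 were used. Trim Galore 0.6.7, kallisto 0.46.2 and the genome build mm10 are named in the submitters' processing notes. The values the authors deposited are estimated counts per gene, unscaled between samples. Between 29.8% and 31.5% of the values of a library were not whole, because kallisto splits reads that fit several transcripts, and they were rounded here. Intervals and floors of 3 counts cover counting error only. No libraries held identical values, and within a group the lowest reduced chi-square was 23.

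Genes were filtered with filterByExpr, scaled with TMM and tested with edgeR 4.0.16 (quasi-likelihood F test, R 4.3.3), without a replicate block. Alternatives were the block, RLE and total-count scaling, no filter, limma-voom (3.58.1), DESeq2 (1.42.0), robust dispersions, a fit of all 35 libraries and the omission of libraries. The script was checked on simulated counts. The SE is the log2 difference divided by the square root of F. CPM uses TMM factors over 35 libraries. Same-numbered libraries were taken as pairs, which the labels do not state; the 35 samples came from 19 mice.

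Genes were named by rule: the 8 largest increases and decreases with an unadjusted p under 0.05, at least 5 CPM and no overlap, the 6 smallest p, up to 3 members of each of 32 lists, 15 fixed genes and the 3 smallest p of each weekly contrast, leaving out predicted genes. Other list members, *Lce* genes and repeat genes are named in addition, after their values were seen. The members and lists were chosen with earlier results of these data known. All 627 list entries were matched to the table, 4 by an older symbol, and 544 were tested. Gene positions are from GENCODE M21 (GRCm38).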

Additional observations from a re-analysis of the deposited data

Results flagged for a closer look

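A library lay far from the other 3 of its group, by Dixon's ratio of its gap to the group's range, in 9 of the 154 groups of 4 examined (77 genes, radiated and control). About 1 group in 20 is flagged among independent, normally distributed values. The genes here were chosen and vary together, so that this rate does not apply directly and chance was not tested. In radiated skin replicate 1 was far above the others for Actn3 (908 CPM), Mstn (182 CPM) and Krt71 (29.8 CPM), and replicate 4 for Myh1 (3929 CPM). In control skin replicate 1 was far below the others for Krt14 (1046 CPM), Krt10 (4758 CPM) and Scd1 (1187 CPM) and above them for Sprr1b (2.19 CPM). Control replicate 3 was far above the others for Epha3 (85.3 CPM).

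Several of the genes named in the text had a radiated-minus-control difference that changed after week 1, by edgeR's test of the change with an adjusted p under 0.05 over all genes. None did so by week 2, 16 of the 77 did by week 3 and 26 by week 4, beside 1085 and 2753 of all 19338 genes. Some of the 77 were named for the smallest p of these contrasts, so these counts are partly fixed by the choice. The upward changes on the log2 scale by week 3 were 4.42 for Spp1, 3.85 for Hdc, 2.73 for Srgn, 2.64 for Col12a1, 2.31 for Pcsk5, 2.08 for Cxcr2, 1.44 for Lat2, 1.33 for Flt1 and 1.28 for Isg20. The downward ones by week 3 were -3.54 for Il22ra2, -3.04 for Mstn, -2.52 for Hoxb9, -2.50 for Hoxc10, -2.24 for Nectin3, -1.64 for Lmod1 and -1.43 for mt-Co3. The upward changes on the log2 scale by week 4 were 14.44 for Krt71, 10.46 for Tchh, 6.82 for Spp1, 4.15 for Col12a1, 3.80 for Pcsk5, 3.68 for Hdc, 3.66 for Col1a1, 2.86 for Epha3, 2.72 for Srgn, 2.08 for Fcgr1, 2.05 for Cxcr2, 1.58 for Flt1, 1.52 for Trem2, 1.41 for Medag, 1.33 for Lat2, 1.29 for Isg20 and 0.99 for Thy1. The week 1 side of 3 of these rests on 1 or 2 control libraries: without control replicates 1 and 4 the week 1 difference went from -5.84 to 4.20 for Krt71 and from -5.31 to 0.95 for Tchh, and without control replicate 3 from -1.95 to -0.80 for Epha3. The downward ones by week 4 were -3.94 for Krt15, -3.86 for Il22ra2, -3.30 for Hoxb9, -2.98 for Mstn, -2.81 for Pvalb, -2.61 for Krt10, -2.50 for Actn3, -2.22 for Nectin3 and -0.95 for Polk.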

How the results depend on the processing

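At week 1 the count of called genes was 0 with all libraries, and it stayed 0 with the replicate block (2570 genes with an unadjusted p under 0.05), RLE or total-count scaling, no filter on low counts, limma-voom and robust dispersions. DESeq2 called 416, and 1 edgeR fit of all 35 libraries called 23. Leaving out each library in turn gave 0 to 232, the latter without radiated replicate 1, and 1 without control replicate 1 or control replicate 3. Among alternatives added after seeing the data, leaving out radiated replicates 1 and 2 together gave 43, leaving out control replicates 1 and 4 gave 0, and the block with pair 1 left out gave 242 and with pair 3 left out 1. Total-count scaling moved the median log2 difference of all genes from 0.05 to 0.18 and turned the split at an unadjusted p under 0.05 from 1239 higher and 1238 lower into 2256 and 630. For the change from week 1, DESeq2 called 9 genes at week 2 and 1635 at week 3, and leaving out week 1 libraries gave 588 to 1079 at week 3, the lowest without control replicate 1. With the replicate block the counts were 0, 1277 and 2882 at weeks 2, 3 and 4, none more than 1.5 times from the counts without it. The deviations of same-numbered week 1 libraries from their group means correlated at 0.24, 0.132, 0.0125 and 0.0619, and radiated replicates 3 and 4 correlated more with control replicates 4 (0.0698) and 3 (0.0935), so the data do not settle the pairing. Total-count scaling turned the called upward and downward changes from 562 and 523 into 624 and 309 at week 3, and from 1443 and 1310 into 1232 and 1453 at week 4. Log2 differences near 0 changed sign, and with 1 library left out they reached, at the other end, 0.13 for Krt10, 0.43 for Cdkn1a, 0.33 for Myh1, -0.37 for Spp1 and 0.19 for Pcsk5. Without radiated replicate 4 they were -0.13 for Krt10, -0.11 for Cdkn1a, -0.11 for Myh1 and -0.053 for Pcsk5. Without control replicate 1 they were -0.063 for Krt10, -0.00502 for Cdkn1a and -0.037 for Myh1. Without radiated replicate 2 Spp1 was at 0.026, and without control replicate 2 Pcsk5 was at -0.054. Leaving out control replicates 1 and 4 gave -0.049 for Krt10, -0.11 for Cdkn1a, -0.034 for Srgn, 4.20 for Krt71 and 0.95 for Tchh. The paired fit gave -0.049 for Krt10 and -0.00861 for Pcsk5 with pair 1 left out, -0.053 for Krt10, -0.089 for Cdkn1a and -0.019 for Srgn with pair 4 left out, and 0.095 for Spp1 with pair 2 left out. The cause of these changes was not tested. Depth limits genes under 3 counts in a library, such as Sprr2d in control skin.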
